A study of Mus musculus with 6 samples.

Results

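Genes of the ubiquitin system, the proteasome and the protein-folding chaperones were followed in the dentate gyrus (DG) and the CA1 of the adult mouse hippocampus. The members were chosen by a rule on the gene symbol alone, though with earlier results of these data known. The symbols were those of proteasome subunits (Psma, Psmb, Psmc, Psmd), of ubiquitin genes and the enzymes that attach or remove ubiquitin (symbols that begin with Ub, Usp or Uch), and of heat shock proteins, J-domain proteins and chaperonin subunits (Hsp, Dnaja, Dnajb, Dnajc, Cct). Of the 7507 genes listed, 134 met the rule: 62 of the ubiquitin class, 25 of the proteasome class and 47 of the chaperone class.

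The data were the RNA side of BALI-Multiome, in which cDNA made in situ in a fixed tissue section receives light-directed barcodes, so that each illuminated area carries its own index. In each of 3 coronal cryosections of adult mouse brain, cut at 10 µm from frozen tissue, the DG (labelled as its granular layer) and the CA1 were indexed, which gave 6 libraries paired by section. No treatment or genetic change is given for either region, and strain and sex are not given in the sources used here. The sample labels give an age of 12 weeks and the protocol in the same labels gives 8 to 12 months. The labels and the methods do not say whether the 3 sections came from different animals, so the p-values below measure the spread between these sections, which may be technical. The matching accessibility (ATAC) samples were not used here.

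Values are unique molecular identifiers (UMIs), each standing for 1 captured cDNA molecule. In sections 1, 2 and 3 the DG yielded 17999, 4572 and 6298 UMIs and the CA1 9357, 2844 and 4865, so 1 UMI was worth between 55.6 and 352 CPM (counts per 1000000 UMIs). In each section the DG yielded 1.29 to 1.92 times the UMIs of the CA1. Region markers were sparse at this depth. The 6 DG granule cell markers listed held 24, 4 and 4 UMIs in the DG against 2, 3 and 0 in the CA1. Their share in section 2 was lower in the DG, at 0.0875% against 0.105% in the CA1. Dock10 and Pdzd2 had UMIs in every DG library and in no CA1 library. C1ql3 (0, 2 and 0 UMIs) and Calb1 (1, 1 and 0) went the other way, with UMIs in the CA1 only. Prox1 and C1ql2 are outside the genes listed. The 6 CA1 pyramidal cell markers held 4, 2 and 2 UMIs in the DG against 9, 1 and 3 in the CA1. In section 2 their share was higher in the DG, at 0.0437% against 0.0352% in the CA1. Oligodendrocyte markers (6 of 7 listed, myelin genes such as Mbp) took 0.503% to 0.794% of UMIs in the DG against 0.668% to 0.994% in the CA1. Nuclear noncoding RNAs such as Malat1 and Meg3 took 3.93% to 6.19% in the DG against 5.51% to 8.23% in the CA1. Both lists were lower in the DG in 3 of 3 sections, and their part in the results below was not tested.

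Ubiquitin is a small protein that cells attach to other proteins through a relay of enzymes. An E1 enzyme activates it, an E2 carries it and an E3 ligase selects the target, while deubiquitinases take it off again. Chains of ubiquitin can send a protein to the proteasome, whose 20S core is a barrel of proteolytic subunits and whose 19S cap recognises and unfolds the target. Chaperones work on the other side of the same balance: Hsp70 and its J-domain partners bind unfolded chains, Hsp90 finishes the folding of kinases and receptors, and the chaperonins enclose proteins such as actin and tubulin. In neurons these systems also act at synapses, where protein turnover accompanies plasticity.

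Transcription of many chaperone genes in stress is driven by heat shock factor, which binds the heat shock element, inverted repeats of the unit NGAAN. The promoters of the members were searched for 3 such units in a row (GAANNTTCNNGAA or TTCNNGAANNTTC, on both strands, which are each other's reverse complement) in the 250 bases before the transcription start, in the RefSeq sequences of GRCm38.p6, the assembly of mm10. An entry was found for 103 of the 134 members. The element was present in 4 of the 103 (3.88%), against 0.514% of all 27025 genes with an entry and 34 of the 5666 listed genes with one. The 4 are Hspd1 and Hspe1, the mitochondrial Hsp60 and Hsp10, Dnajb6, a J-domain protein, and Uchl1, a deubiquitinase abundant in neurons. They are shown because, of the 103 members with an entry, they are those with a match in the bases searched. Hspd1 and Hspe1 share 1 window, so the 4 genes are not 4 separate sites. The shares above are counted by gene, for the members and for the background. Looser forms of the element were not searched for, so members without a match may still hold one. The matched bases are in capitals, with 6 bases on each side:
Hspd1: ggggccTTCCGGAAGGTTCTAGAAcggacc
Hspe1: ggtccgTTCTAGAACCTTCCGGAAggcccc
Dnajb6: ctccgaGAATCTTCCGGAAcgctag
Uchl1: gagggtTTCCAGAAATTTCgctcca

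The Hspd1 and Hspe1 sequences are the same window read on opposite strands, since these genes share a divergent promoter (GRCm38.p6, chr1:55088053-55088082, minus strand for Hspd1 and plus strand for Hspe1). It holds 2 overlapping matches and lies 127 to 144 bases before the Hspd1 start and 72 to 89 bases before the Hspe1 start, inside the first exon of a longer annotated Hspd1 transcript. The Dnajb6 window (chr5:29735846-29735870, plus strand) overlaps an exon of Gm5129 on the opposite strand. The Uchl1 window (chr5:66675948-66675972, plus strand) lies in an intron of the antisense transcript Uchl1os. A match is a run of letters and was not measured as a binding site here. The 4 genes held few UMIs: 5 for Hspd1, 2 for Hspe1, 1 for Dnajb6 and 13 for Uchl1 over the 6 libraries. Other motifs, all searched on both strands, went in both directions. The GC box (GGGCGG) was in 73.8% of the members' promoters against 65.5% of those of the listed genes, and the core of the antioxidant response element (TGACNNNGC) in 18.4% against 14.2%, with 3 of 19 proteasome genes (15.8%) among them. The CCAAT box was in 31.1% against 39.6% and the cyclic AMP response element (TGACGTCA) in 0.97% against 3.57%.

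In all, the members held 840 of the 45935 UMIs (1.83%), close to their 1.79% of the genes listed. Their summed share was 1.90%, 1.84% and 1.75% in the DG against 1.85%, 1.93% and 1.56% in the CA1 of sections 1, 2 and 3, so the whole group did not separate the regions. The 3 classes did not follow one direction. The ubiquitin class took a larger share in the DG in every section, the chaperone class a larger share in the CA1 in every section (2 of 3 with TMM library sizes), and the proteasome class no steady direction.

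The ubiquitin class held 177, 42 and 50 UMIs in the DG (0.983%, 0.919% and 0.794%) against 77, 21 and 31 in the CA1 (0.823%, 0.738% and 0.637%). The DG was higher within each section, with a mean log2 ratio of 0.30 ± 0.034 (SD, n = 3 sections). The ranges of the regions overlapped: section 3 was lowest and section 1 highest in both. Counting error alone was wider than this SD implies, since the exact 95% intervals of the 2 libraries overlapped in every section. In section 2 they ran from 0.663% to 1.24% in the DG and from 0.458% to 1.13% in the CA1. The small SD therefore does not show that the step was constant. Over the summed UMIs the ratio of the DG to the CA1 was 1.23, with an exact 95% interval of 0.996 to 1.53 that covers counting error only and includes equality. On the counts as deposited, which carry an added 1 per gene, the log2 ratio was 0.13. TMM scaling, which itself moved the DG up by 0.11 against the CA1 on the log2 scale, gave 0.41.

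The chaperone class held 117, 28 and 44 UMIs in the DG (0.650%, 0.612% and 0.699%) against 73, 23 and 36 in the CA1 (0.780%, 0.809% and 0.740%). The 3 DG libraries all lay below the 3 CA1 libraries, a separation that was lost with TMM library sizes, where section 3 turned and the mean log2 ratio was -0.14. The mean log2 ratio of the DG to the CA1 was -0.25 ± 0.16 (SD, n = 3 sections), with a ratio of summed UMIs of 0.846 (exact 95% interval 0.674 to 1.07), an interval that also includes equality. No test was made of these summed shares. In bulk libraries of this kind, fewer cells of a type and less RNA per cell cannot be told apart.

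The proteasome class held 48, 14 and 16 UMIs in the DG (0.267%, 0.306% and 0.254%) against 23, 11 and 9 in the CA1 (0.246%, 0.387% and 0.185%). Section 2 went towards the CA1 and the other two sections towards the DG, and the mean log2 ratio of 0.079 ± 0.40 (SD, n = 3 sections) was well within its spread. The ratio of summed UMIs was 1.07 (exact 95% interval 0.730 to 1.59).

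**Figure D1:**
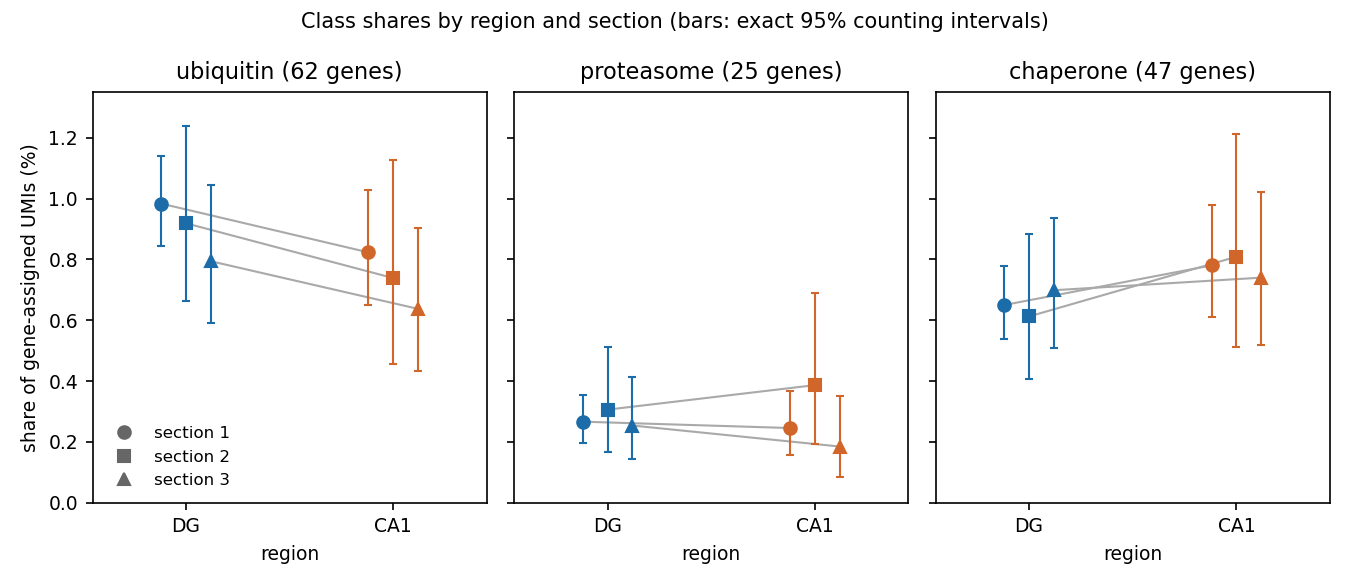
Share of gene-assigned UMIs (%, linear axis) of the ubiquitin, proteasome and chaperone classes in the DG (blue) and the CA1 (orange). Each point is 1 library, its shape gives the section, grey lines join the libraries of a section and bars are exact 95% intervals for counting error. All 3 lines fall from the DG to the CA1 for the ubiquitin class and rise for the chaperone class (in 2 of 3 sections with TMM library sizes), while the intervals of the libraries overlap throughout.

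A ratio between both classes needs no library total. There were 1.51, 1.50 and 1.14 ubiquitin UMIs per chaperone UMI in the DG libraries against 1.05, 0.913 and 0.861 in the CA1 libraries. The mean was 1.38 ± 0.21 in the DG against 0.943 ± 0.10 in the CA1 (SD, n = 3), and the regions did not overlap. This ratio was chosen after the class shares were seen and is a second view of the same counts, so it is given as a description with no test.

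Among members with at least 5 UMIs, the summed share was higher in the DG for 16 of 24 ubiquitin genes (66.7%), 7 of 11 proteasome genes (63.6%) and 7 of 20 chaperone genes (35.0%), against 51.6% of the 2313 genes of the table at that level. Without Ube3a, its member with most UMIs, the mean log2 ratio of the ubiquitin class was 0.24, and without Hsp90ab1 that of the chaperone class was -0.28. Not every member was left out in turn. Without its 39 deubiquitinases the ubiquitin class was at 0.47 (their own ratio was 0.21).

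Of the 14 subclasses, 4 had a higher share in the DG in 3 of 3 sections: the E1 enzymes, the 20S core subunits, Hsp70 with Hsp110, and 1 subclass that is not described here. In the other direction, the chaperonin subunits were higher in the CA1 in 3 of 3 sections. The other 9 subclasses had no common direction over the sections. These 5 directions were the same with TMM library sizes and with totals that left out Malat1, Meg3 and Rn45s. Beside them, 12.5% of the 361 single genes with at least 20 UMIs were higher in the DG in 3 of 3 sections. Another 15% of these genes were higher in the CA1 in 3 of 3 sections. The directions of the subclasses were not tested.

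**Figure D2:**
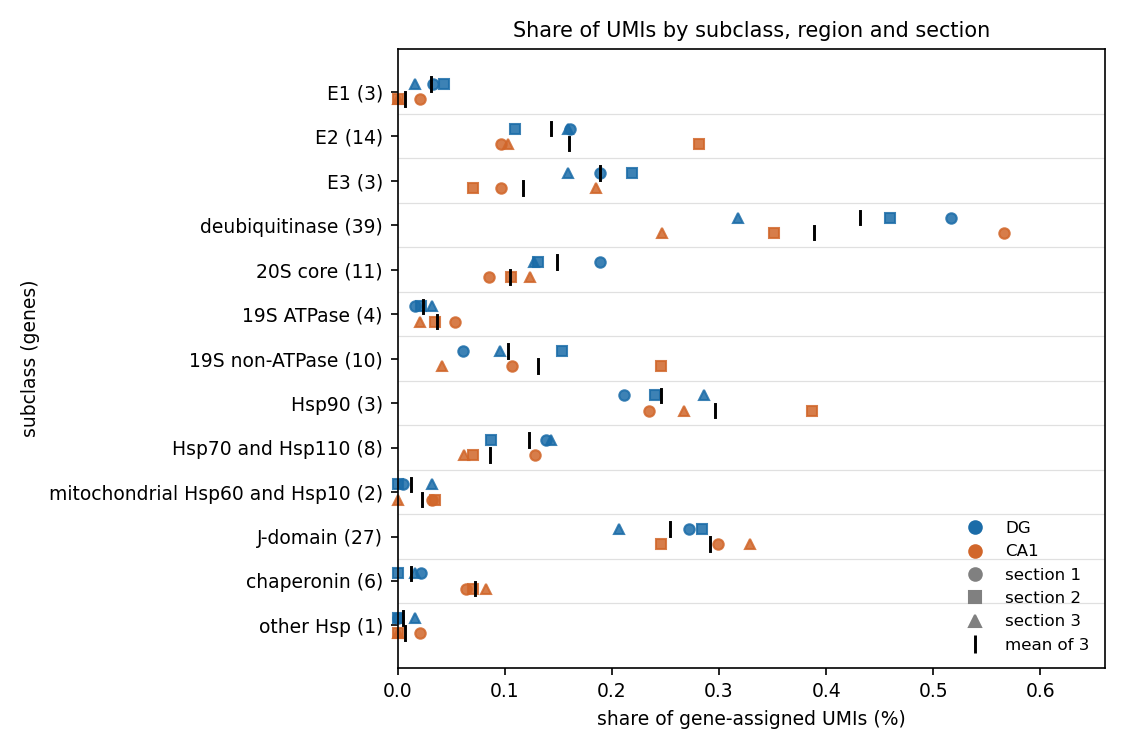
Share of gene-assigned UMIs (%, linear axis) of 13 subclasses, each with its number of genes, in the DG (blue) and the CA1 (orange). Points are libraries, shapes are sections and black ticks are means of 3. The DG and CA1 points are apart for the 20S core and for the chaperonin subunits and overlap in the other subclasses shown. Of the 361 single genes with at least 20 UMIs, 5.26% had all DG libraries above the CA1 libraries and 4.71% below them.

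The E1 enzymes, which start the relay, were at the edge of detection. Uba1, the main ubiquitin-activating enzyme, had 3, 1 and 0 UMIs in the DG against 1, 0 and 0 in the CA1. The 3 genes summed to 9 UMIs in the DG against 2 in the CA1, a ratio of 2.66 whose exact 95% interval ran from 0.551 to 25.3.

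The 14 E2 enzymes held 44 UMIs in the DG against 22 in the CA1, and no region was favoured (mean log2 ratio 0.0029 ± 1.18, SD, n = 3 sections). Ube2b, an E2 known for its part in DNA damage tolerance and in the N-degron pathway, had 6, 1 and 7 UMIs in the DG against 0, 4 and 0 in the CA1. Ube2r2, which works with cullin ligases, had 6, 1 and 1 in the DG against 3, 3 and 1 in the CA1. The CA1 library of section 2, the shallowest of the 6, held 7 UMIs of these 2 genes together and set the high point of the subclass.

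Ube3a held more UMIs than any other member. It encodes the E3 ligase lost in Angelman syndrome, is imprinted in neurons, where the maternal copy is used, and lies at chr7:59228750-59310837 on the plus strand. Ube3a held 32, 10 and 10 UMIs in the DG against 9, 2 and 9 in the CA1. In CPM this was 1778, 2187 and 1588 in the DG, against 962, 703 and 1850 in the CA1, so that the CA1 library of section 3 lay inside the DG range and the other CA1 libraries below it.

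The mean of Ube3a was 1851 ± 306 CPM in the DG against 1172 ± 601 CPM in the CA1 (SD, n = 3). The difference of 0.73 ± 0.89 on the scale of log2(CPM + 55.6), the added value being the CPM of 1 UMI in the deepest library (SD over n = 3 sections), was smaller than its spread. The exact permutation test, two-sided, gave p = 0.3, where 0.1 is the smallest that 3 libraries against 3 allow. Over the summed UMIs the ratio of the DG to the CA1 was 1.54, with an exact 95% interval of 0.902 to 2.72. The antisense transcript Snhg14 shares 267 exon bases with Ube3a and the counting ignored strand, so reads from these bases cannot be assigned to one of them. Snhg14 itself was counted at 4, 0 and 2 UMIs in the DG against 4, 1 and 2 in the CA1. The other Ube3 ligases, Ube3b and Ube3c, had 1 UMI each, both in the DG library of section 1.

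The deubiquitinases were the largest subclass, with 39 genes and 134 UMIs in the DG against 75 in the CA1. Their shares overlapped between the regions (mean log2 ratio 0.21 ± 0.29, SD, n = 3 sections). Usp22, the deubiquitinase of the SAGA chromatin complex, was the most even of the members named, with 6, 2 and 2 UMIs in the DG against 4, 1 and 1 in the CA1, a ratio of summed CPM of 0.985 (exact 95% interval 0.324 to 3.30). Usp34 held 5, 0 and 2 UMIs in the DG against 6, 1 and 0 in the CA1. Uchl1 held 4, 2 and 2 in the DG against 5, 0 and 0 in the CA1. At 11.3 UMIs per kb of exon it stood far above the median of 0.924 for the members. The cDNA was primed with poly-T, so UMIs need not scale with exon length and UMIs per kb are not a level.

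The 20S core, the barrel that cuts the protein, held 34, 6 and 8 UMIs in the DG against 8, 3 and 6 in the CA1 over its 11 genes. The share of the core was 0.189%, 0.131% and 0.127% in the DG against 0.0855%, 0.105% and 0.123% in the CA1, so the DG libraries were all above the CA1 libraries, in section 3 by little. The mean log2 ratio was 0.50 ± 0.57 (SD, n = 3 sections) and the ratio of summed UMIs 1.67, with an exact 95% interval of 0.943 to 3.10. The alpha ring subunits summed to 32 UMIs in the DG against 13 in the CA1, and the beta ring subunits, which include the catalytic ones, to 16 and 4. Psma3 had 9, 1 and 1 UMIs in the DG against 2, 1 and 4 in the CA1, and Psma7 had 10, 0 and 2 in the DG against 3, 0 and 2 in the CA1. The DG library of section 1, the deepest, held more UMIs of each than any other library.

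The 19S cap did not follow the core. Its ATPases, which unfold the target, held 6 UMIs in the DG against 7 in the CA1, with Psmc1 at 2, 0 and 0 in the DG against 4, 1 and 0 in the CA1. Psmc3 held 0, 0 and 1 UMIs in the DG against 1, 0 and 1 in the CA1. Its other subunits held 24 and 19 UMIs, with Psmd1, a large scaffold subunit, at 4, 2 and 1 in the DG against 5, 4 and 0 in the CA1, and Psmd2, its partner in the base, at 3, 1 and 0 and at 3, 0 and 0. Without the 20S core members, the proteasome class had a mean log2 ratio of -0.23, the opposite sign to the whole class. This difference between core and cap was not tested.

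Hsp90 completes the folding of signalling proteins. Hsp90ab1, the constitutive cytosolic Hsp90 (chr17:45567778-45573261, minus strand), had 25, 5 and 13 UMIs in the DG against 13, 5 and 9 in the CA1. It had the most UMIs per kb of exon of all members (27.9), which is likewise not a measure of level. Its CPM was 1389, 1094 and 2064 in the DG against 1389, 1758 and 1850 in the CA1, so the DG range enclosed that of the CA1. The difference was -0.17 ± 0.43 on the log2(CPM + 55.6) scale (SD over n = 3 sections, exact permutation p = 0.6, two-sided).

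Hsp90aa1, the stress-inducible cytosolic form (chr12:110691036-110696395, minus strand), had 8, 4 and 4 UMIs in the DG against 7, 4 and 2 in the CA1. It stood at 651 ± 216 CPM in the DG against 855 ± 506 CPM in the CA1 (SD, n = 3), and the libraries overlapped (exact permutation p = 0.7, two-sided). The third member, Hsp90b1 of the endoplasmic reticulum, held 5, 2 and 1 UMIs in the DG against 2, 2 and 2 in the CA1.

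Hsp70 and Hsp110 went the other way from the chaperone class as a whole. The 8 genes held 25, 4 and 9 UMIs in the DG against 12, 2 and 3 in the CA1, higher in the DG in 3 of 3 sections, with overlapping shares (mean log2 ratio 0.55 ± 0.58, SD, n = 3 sections). Hspa9, the Hsp70 of mitochondria, had 4, 1 and 4 UMIs in the DG against 2, 0 and 0 in the CA1. Hsph1, an Hsp110 that renews the nucleotide of Hsp70, had 3, 0 and 3 in the DG against 7, 0 and 1 in the CA1. Hspa8, the constitutive cytosolic Hsp70, had 3, 1 and 2 in the DG against 3, 0 and 1 in the CA1. Without this subclass the mean log2 ratio of the chaperone class was -0.38, lower in the DG in 3 of 3 sections.

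Of the mitochondrial folding chamber, Hspd1 had 1, 0 and 2 UMIs in the DG against 1, 1 and 0 in the CA1. Its lid Hspe1 had 2 UMIs, both in the CA1 library of section 1. Hspbp1, a nucleotide exchange factor of Hsp70, had 1 UMI in the DG against 2 in the CA1.

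The 27 J-domain proteins, which bring clients to Hsp70, held 49, 13 and 13 UMIs in the DG against 28, 7 and 16 in the CA1. Their shares overlapped (mean log2 ratio -0.20 ± 0.44, SD, n = 3 sections). Without them 1 of 3 sections of the chaperone class turned to the DG, with a mean log2 ratio of -0.29. Dnajc5, the cysteine string protein of synaptic vesicles (chr2:181518858-181552886, plus strand), was counted at 13, 1 and 2 UMIs in the DG against 6, 0 and 5 in the CA1. It stood at 420 ± 267 CPM in the DG against 556 ± 519 CPM in the CA1 (SD, n = 3, exact permutation p = 0.9, two-sided), and the sign of its log2 difference changed with the value added before the logarithm. Dnajc1, a J-domain protein of the endoplasmic reticulum, had 4, 1 and 1 UMIs in the DG against 3, 0 and 1 in the CA1.

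The chaperonin CCT, the ring that folds actin and tubulin, had the summed ratio farthest from 1 of any subclass, on 17 UMIs in all. Its 6 genes held 4, 0 and 1 UMIs in the DG against 6, 2 and 4 in the CA1, that is 0.0222%, 0% and 0.0159% against 0.0641%, 0.0703% and 0.0822%. The exact 95% interval of the count of 0 in the DG library of section 2 reaches 0.0807%, above the CA1 share of 0.0703% in that section. The ratio of summed UMIs was 0.246, with an exact 95% interval of 0.0680 to 0.751 that does not reach equality but covers counting error only, for 1 subclass of 14. Without these 17 UMIs the mean log2 ratio of the chaperone class was -0.14 in place of -0.25, and 1 of 3 sections turned to the DG. Of the 6 genes, 4 had UMIs in the CA1 only and 0 in the DG only, against 16.8% and 35.2% of all genes listed. These 4 genes held 5, 2, 1 and 1 UMIs in all, and a gene with 1 UMI must be at 0 in one region. Cct7 had 0, 0 and 0 UMIs in the DG against 4, 1 and 0 in the CA1, and Cct5 had 2, 0 and 1 in the DG against 1, 1 and 0 in the CA1. Cct7 shares 231 exon bases with Pradc1 on the opposite strand.

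**Figure D3:**
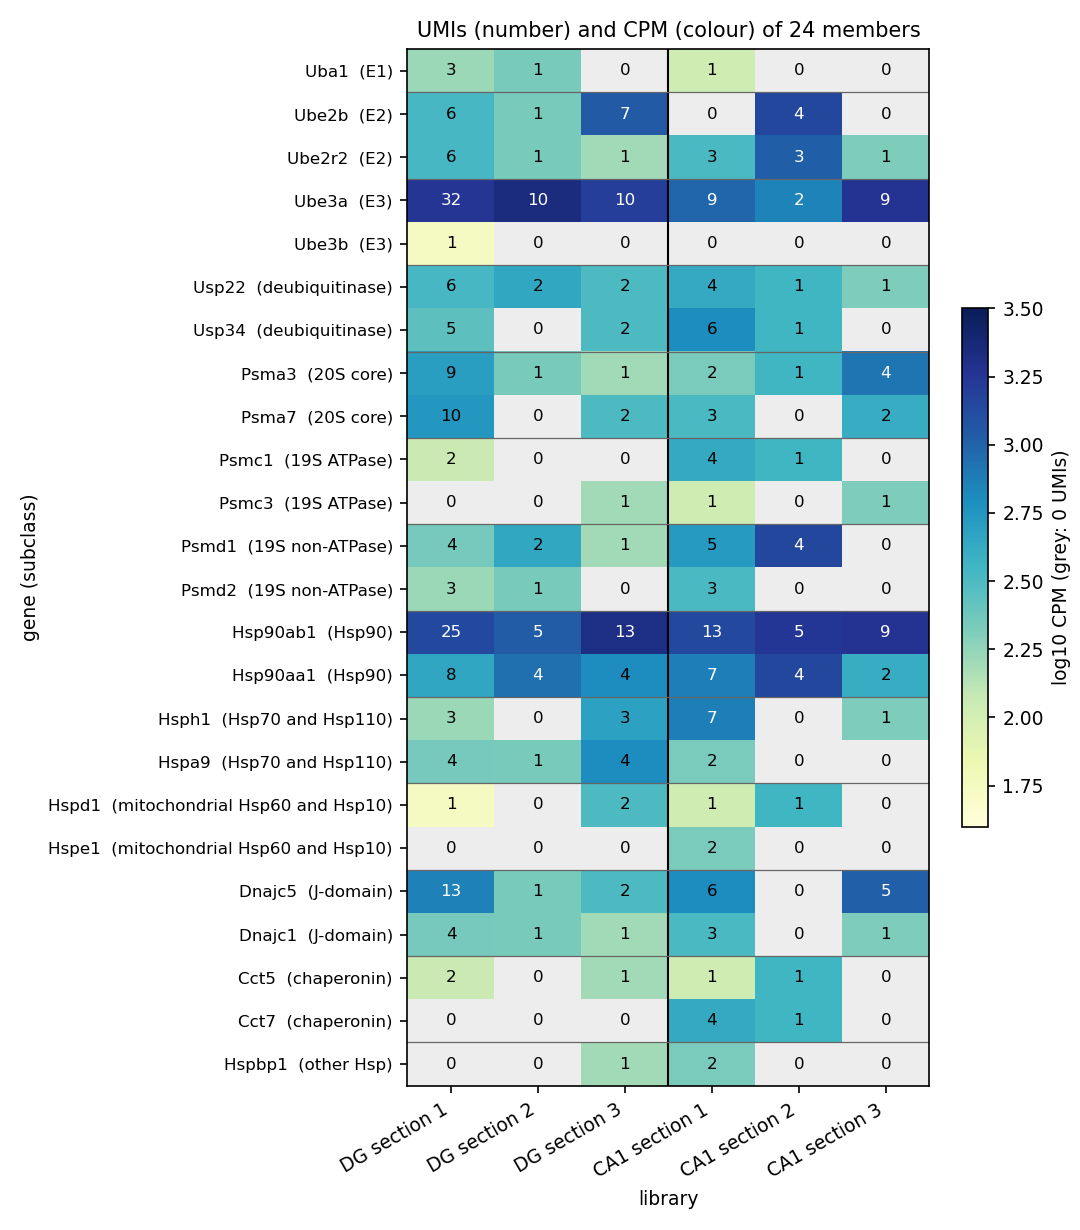
UMIs (numbers) and log10 CPM (colour, grey for 0 UMIs) of 24 members named by rule, in rows by subclass and in columns by library. Only Ube3a and Hsp90ab1 reached 5 or more UMIs in at least 5 libraries, and Cct7 is at 0 in the 3 DG libraries.

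The depth set how much could be compared for single genes. Of the 134 members, 36 had 1 UMI in all, 44 had UMIs in a single library and 10 had a UMI in all 6 libraries (7.46%, against 5.25% of all genes listed). UMIs were found in the DG only for 33 members (24.6%) and in the CA1 only for 27 (20.1%), against 35.2% and 16.8% of all genes. When every library was thinned to the 2844 UMIs of the smallest (means of 20 draws), a UMI was left for 29.8 to 36.1 members in the DG libraries against 30.5 to 38.0 in the CA1 libraries, overlapping ranges. Before thinning the numbers were 48 to 90 in the DG against 38 to 72 in the CA1.

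Across all genes, edgeR's quasi-likelihood test of the DG against the CA1 kept 43 genes after its filter on low counts, and none of the members was among them. It called 0 genes (0% at an adjusted p under 0.05, Benjamini-Hochberg), 3 had an unadjusted p under 0.05, and the alternative DESeq2 called 0 as well. With a filter of at least 20 UMIs summed over the libraries, 361 genes were tested, 1 was called (0.277%), the kinase gene Prkce, and 17 were at an unadjusted p under 0.05. That fit tested 5 members and called 0. Their median log2 fold change was -0.090, against -0.029 over all 361 genes.

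In that edgeR fit, Ube3a had a log2 fold change of 0.61 ± 0.41 (SE) with an adjusted p of 0.985. With the section as a replicate block, its adjusted p was 0.825. Dnajc5, Hsp90aa1 and Hsp90ab1 lay between -0.40 and -0.090, with adjusted p from 0.985 to 0.988. With no filter, all 134 members were tested and 0 were called, while 1 member, Cct7, was among the 127 of 7507 genes (1.69%) at an unadjusted p under 0.05 (edgeR, unadjusted p = 0.0233, adjusted p = 0.663). The depth does not show that the other members were equal between the regions.

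**Figure D4:**
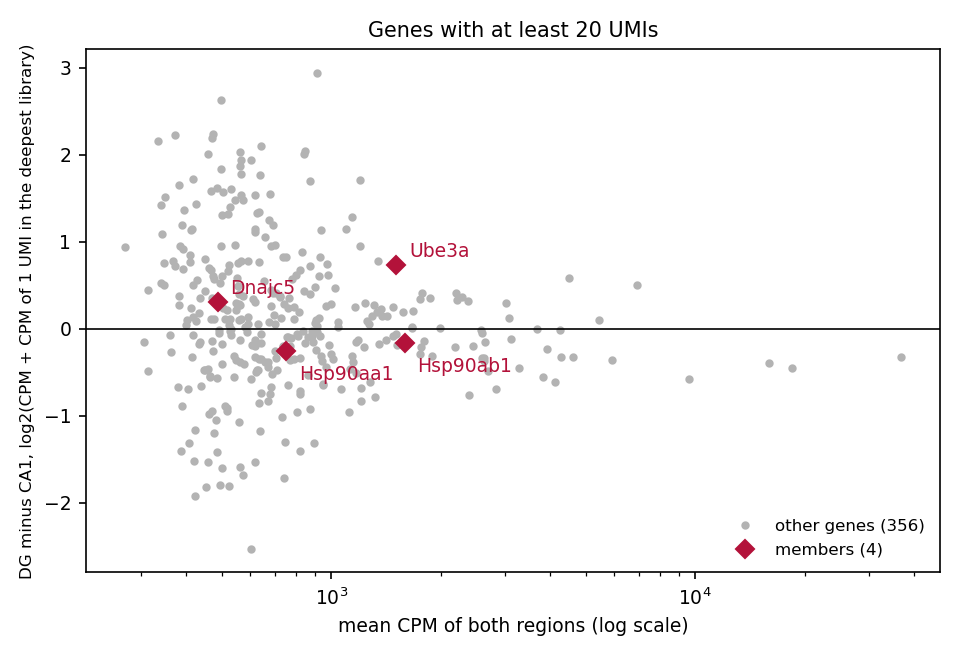
Difference between the DG and the CA1, as means of log2(CPM + 55.6), against mean CPM of both regions (log axis) for genes with at least 20 UMIs. Grey points are 356 other genes and red diamonds 4 members, which lie between -0.26 and 0.73, inside the spread of the other genes.

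By exact permutation, 36 of these 361 genes reached the smallest p of 0.1, and no gene fell below 0.966 after adjustment. All DG libraries were above all CA1 libraries for 5.26% of the 361 genes and below them for 4.71%, and the regions overlapped for Ube3a, Hsp90ab1, Hsp90aa1 and Dnajc5. In 3 of 3 sections, 12.5% of the 361 genes were higher in the DG and 15% higher in the CA1, and these 4 members were in neither set.

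A wider list of the same pathways held 75 further genes (proteasome activators and assembly factors, ubiquitin-like proteins, cullins and other ligases, Hsp90 and Hsp70 cochaperones, and folding enzymes of the endoplasmic reticulum), of which 49 were listed. Together they took 0.492% to 0.694% of UMIs in the DG against 0.473% to 0.620% in the CA1, higher in the DG in 2 of 3 sections. At least 20 UMIs were reached by 2 of them, and edgeR called 0. Rps27a, a gene for ubiquitin fused to a ribosomal protein, had 27, 1 and 3 UMIs in the DG against 6, 0 and 0 in the CA1, higher in the DG in 3 of 3 sections (exact permutation p = 0.3, two-sided, 0.966 adjusted over the 361 genes). Nedd4l, an E3 ligase of membrane channels, stood at 618 ± 391 CPM in the DG against 664 ± 369 CPM in the CA1 (SD, n = 3).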

How the data were processed

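The authors extracted 6-base UMIs with UMI-tools, assigned reads to a region by a full or partial 4-digit barcode with cutadapt 4.1, mapped read 1 to mm10 with STAR 2.7.9a, assigned it to genes with featureCounts (Subread 2.0.3, default options, strand ignored) and counted UMIs per gene. In the deposited counts each value is the UMI number plus 1, and that 1 was subtracted here. Columns of the authors' CPM, fold and log10 ratios were not used.

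The members and gene lists were chosen with earlier results of these data known. Shares are percent of a library's UMIs with exact (Clopper-Pearson) 95% intervals, and these intervals cover counting error only. Members named are the 2 with most UMIs in each subclass and every member with at least 20 UMIs. Some genes, counted in all sums, are not reported here by name. Uchl1, Hspa8, Hsp90b1, Ube3c, Dnajb6, Snhg14, Prkce, Dock10, Pdzd2, C1ql3 and Calb1 were added after their values were seen. For single genes, log2(CPM + 55.6) was compared by exact permutation. edgeR 4.0.16 (quasi-likelihood, TMM, filterByExpr with minimum count 10, R 4.3.3) was fitted to all 7507 genes and tested on simulated data. DESeq2 1.42.0 was an alternative. The design assumed raw UMIs, and since filterByExpr kept no member, the members' values come from the planned fit on genes with at least 20 UMIs. The DG and the CA1 of a section share their tissue, which pairs the libraries. Their deviations from the region means correlated at 0.281, 0.0307 and 0.0139 over 361 genes. Positions are RefSeq GRCm38.p6, in which 35 of 134 members share exon bases with a gene on the opposite strand, so their counts are uncertain.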

Additional observations from a re-analysis of the deposited data

How the results depend on the processing

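The ubiquitin class stayed higher in the DG under all 20 alternatives and the chaperone class lower under all 22 (-0.38 to -0.098). The log2 ratio of the ubiquitin class, 0.30 as reported, moved by more than its small SD to 0.13 on the counts as deposited, 0.41 with TMM library sizes and 0.24 without Ube3a. It lay between 0.20 and 0.39 when a section or a library was left out. Alternatives chosen after seeing the data gave 0.26, 0.42, 0.23 and 0.47 without the E1, E2, E3 and deubiquitinase members. The proteasome class changed sign in 5 of 19 alternatives (-0.23 to 0.36). Among single members, Ube3a (0.32 to 1.21) kept its sign in all 15. Leaving out sections or libraries gave -0.67 to 0.16 for Hsp90aa1, -0.41 to 0.077 for Hsp90ab1 and -1.01 to 1.23 for Dnajc5. Hsp90ab1 changed sign to 0.13 on the counts as deposited, and to 0.077 and 0.034 without replicate 2 and without its DG library. Hsp90aa1 changed it without CA1 replicate 2. Dnajc5 changed it to -0.031 with 4 times the pseudocount, to -0.029 on the counts as deposited, and to -0.69, -0.12 and -1.01 without replicate 2, DG replicate 1 and CA1 replicate 2. The causes were not tested. edgeR called 0 genes in the fit reported and 1 with at least 20 UMIs, both without and with the replicate block, which called 0 under filterByExpr. The sign-flip test within pairs cannot go below 0.25. The class without a further single member is not reported.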
